A study of Homo sapiens with 6 samples.

Results

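The genes described here make up the secretory pathway and the unfolded protein response, as a list of 47 symbols covering chaperones and folding enzymes of the endoplasmic reticulum (ER), its degradation and translocation machinery, the stress sensors and secretory genes of plasma cells. Of 47 listed symbols, 47 were rows of the deposited table of 15802 genes, and 47 were among the 11613 genes with enough counts to be tested. RNA was sequenced in bulk from SC1, a human B-cell lymphoma line, in 3 libraries of cells given bryostatin at 1 nM and 3 libraries of cells given the solvent DMSO, and both groups are the same line. Bryostatin is a natural macrolactone that binds protein kinase C. The labels give neither the length of treatment nor whether replicates were separate cultures, so p-values measure the spread between these libraries, which may be technical.

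Proteins bound for the cell surface or for secretion enter the ER through the Sec61 channel, lose their signal peptide and fold with the help of chaperones, disulfide isomerases and lectins. Chains that do not fold are pulled back and degraded, a route called ER-associated degradation. When unfolded chains build up, the sensors IRE1, ATF6 and PERK start the unfolded protein response. In the B lineage its XBP1 branch is best known for the large ER that antibody-secreting plasma cells build.

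Total expected counts per library were 18162161 to 18915394, and 13930 to 14357 genes had a value above 0. Of 8 B-cell markers, 8 were tested and 4 of them passed as higher (50%, beside 3.72% of all genes tested). Libraries are named by group and replicate number, so bryostatin 1 is 1 library of treated cells. Without bryostatin 1, that is, in a fit that leaves this library out, 7 of the 8 markers passed as higher (87.5%, beside 13.8% of all genes). The summed level of the 8 markers was 3010 to 3480 TPM (transcripts per 1000000, a level per transcript length) in bryostatin libraries and 2335 to 2408 TPM in DMSO libraries. The markers of T, NK, epithelial, stromal and endothelial cells summed to 1.83 to 4.50 TPM in bryostatin libraries and 2.53 to 3.22 TPM in DMSO libraries, with CD3E at 0 TPM in each bryostatin library and in 2 of 3 DMSO libraries, and CD14 and EPCAM at no more than 1.1 TPM in any library. The T and NK markers CD3D, CD2 and NKG7 were not rows of the deposited table, so the sum leaves them out. Of the myeloid markers, those detected at more than 1 TPM were S100A8 at 20.5 to 44.2 TPM in bryostatin libraries and 37.7 to 61.5 TPM in DMSO libraries, and S100A9 at 38.6 to 91.0 TPM in bryostatin libraries and 65.9 to 113 TPM in DMSO libraries.

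One library stood apart. Bryostatin 1 had a scaling factor of 0.952, against 1.001 to 1.021 in the other libraries, and 7.39% of its counts in its 10 most abundant genes, against 5.86 to 6.31%. The chi-square per gene was 38.9 and 35.6 between bryostatin 1 and bryostatin 2 and 3, and 2.85 between bryostatin 2 and 3. It was 15.4 to 18.4 between bryostatin 2 or 3 and the DMSO libraries, so bryostatin 1 lay further from its own group than these 2 libraries lay from DMSO. The difference ran with transcript length in the secretory genes. Over the 47 members, log2 effective length and the log2 CPM of bryostatin 1 minus the mean of bryostatin 2 and 3 had r = -0.78, with the points sharing the same libraries, and over 10854 genes r was -0.438. The 23 shortest members (300 to 2518 bases) had a median difference of 0.23 with 6 below 0, and the 23 longest (2674 to 7716 bases) had a median of -0.31 with 21 below 0. Counts of genes that passed are therefore also given below without bryostatin 1. Log2 effective length and the members' log2 fold changes had r = -0.0897 with all libraries and 0.259 without bryostatin 1. Over all genes these values were -0.0935 and 0.11. For bryostatin 2 minus bryostatin 3, r was 0.387 over the members and 0.0983 over all genes. The part that length had in the fold changes of either fit was not tested.

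**Figure D1:**
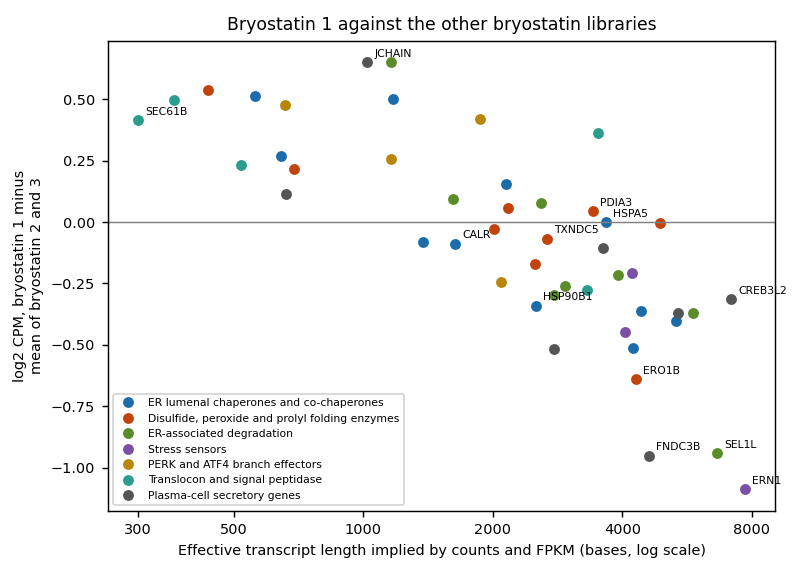
Each point is 1 of the 47 genes. The x axis gives the effective transcript length in bases (log scale), as implied by the deposited counts and FPKM, and the y axis the log2 CPM of bryostatin 1 minus the mean of bryostatin 2 and 3; the longest 23 genes lie mostly below 0 (21 of 23).

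Few members passed the test. Of 47 members, 2 rose with bryostatin (ERO1B and PDIA3), 3 fell (TXNDC5, HSP90B1 and CREB3L2) and 42 did not pass (edgeR quasi-likelihood test, Benjamini-Hochberg adjusted p under 0.05 over 11613 genes). That is 10.6% of members, beside 4.56% of all genes tested, of which 3.72% rose and 0.835% fell. The median log2 fold change (bryostatin over DMSO) was -0.04 over the members and 0.00 over all genes (-0.00139), and the members' values ran from -0.69 to 1.14. In CPM (counts per 1000000 of the scaled library), 15 members had groups that did not overlap, 7 higher and 8 lower, which is 31.9%, beside 27.8% of all genes. These are bulk values, so fewer cells of a type and less RNA per cell cannot be told apart.

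Without bryostatin 1, 18 members passed, 7 higher and 11 lower, and the 5 named above kept their call and sign. The background moved as well: 27.0% of 11790 genes passed in that fit, 13.8% higher and 13.2% lower, beside 38.3% of the members. With library quality weights, which gave bryostatin 1 a weight of 0.104, the members numbered 7 higher and 11 lower. Without bryostatin 2 they were 1 higher and 3 lower, and without bryostatin 3 PDIA3 alone passed. Without DMSO 1, 2 or 3 the count was 0 each time by edgeR, while before adjustment 3 higher and 6 lower, 5 and 6, and 4 and 5 had p under 0.05, and with all libraries DESeq2 called 3 higher and 4 lower. Over all genes the split was 432 higher and 97 lower in counts, and 269 and 198 on the deposited TPM values, where by limma 0 members rose and 2 fell (MANF and SEC61B), with 2 higher and 11 lower at p under 0.05 before adjustment. The TPM values were shifted down over all genes, with a median log2 fold change of -0.0908, beside -0.139 over the members.

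**Figure D2:**
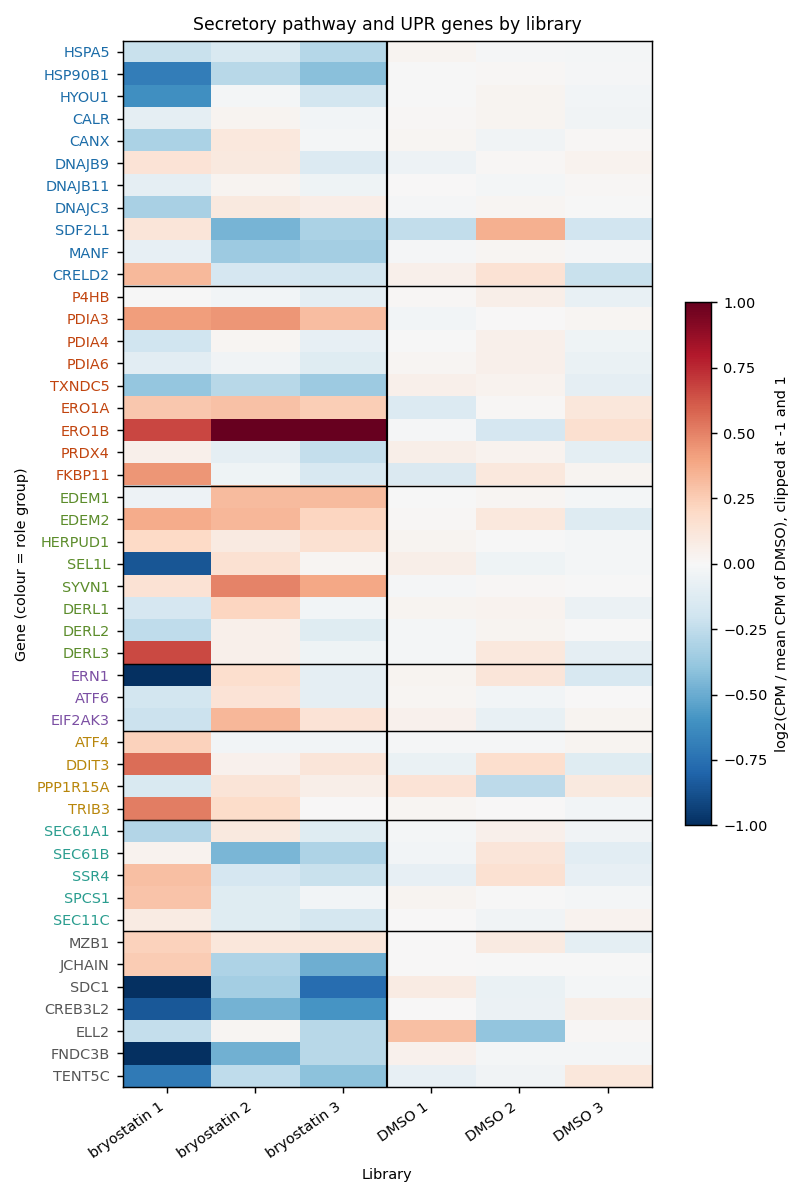
Rows are the 47 genes, grouped and coloured by role, and columns the 6 libraries; colour gives log2 of CPM over the mean CPM of the DMSO libraries, clipped at -1 and 1. HSP90B1, TXNDC5 and CREB3L2 are below the DMSO mean in each bryostatin library, while SEL1L and ERN1 are low in bryostatin 1 alone.

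Of the 11 chaperones and co-chaperones of the ER lumen, 0 rose, 1 fell and 10 did not pass, with a median log2 fold change of -0.07. The gene that fell was HSP90B1 (Entrez 7184, chromosome 12, 103930410 to 103947926, GRCh38.p14), which encodes GRP94, the ER form of HSP90 and a chaperone of integrins and Toll-like receptors. It had 538.6, 714.3 and 650.7 CPM in bryostatin 1, 2 and 3, against 863.6, 876.3 and 862.4 CPM in DMSO 1, 2 and 3. The groups did not overlap, and bryostatin 1 was the lowest library. The log2 fold change was -0.45 ± 0.10 (SE, edgeR adjusted p = 0.0454, range over 14 alternatives 2.76e-06 to 0.195). It was -0.35 without bryostatin 1 (adjusted p = 2.76e-06). The call was lost without bryostatin 3 (adjusted p = 0.113), without DMSO 1, 2 or 3 (0.184, 0.195 and 0.191), with scaling by library size alone (0.0541) and on the TPM values (0.0891).

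HSPA5 encodes BiP, the main ER chaperone of the HSP70 family and the protein that holds the stress sensors inactive. It had 780.5, 819.1 and 744.8 CPM in bryostatin libraries and 927.4, 900.5 and 897.2 CPM in DMSO libraries. The groups did not overlap, yet the difference missed the threshold: its log2 fold change was -0.22 ± 0.06 (edgeR adjusted p = 0.109). Without bryostatin 1 the fold change was -0.22 and passed (adjusted p = 6.38e-04). MANF, a small BiP-binding protein that is also secreted, had 106.4, 87.5 and 89.0 CPM with bryostatin and 111.7, 113.9 and 111.7 CPM with DMSO. Each of its bryostatin libraries lay below each DMSO library, and its log2 fold change was -0.25 (edgeR adjusted p = 0.169), and -0.35 without bryostatin 1 (adjusted p = 1.79e-05).

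The lectin chaperone CALR, which binds the sugars of folding glycoproteins, was the most abundant member. Its level was 1038 ± 135 TPM in bryostatin libraries and 1123 ± 11.8 TPM in DMSO libraries (SD, n = 3 each). In counts it had 1127, 1221 and 1175 CPM with bryostatin and 1209, 1219 and 1166 CPM with DMSO, with overlapping groups; its log2 fold change was -0.03 (edgeR adjusted p = 0.853). Its membrane-bound relative CANX had a log2 fold change of -0.07 (0.04 without bryostatin 1). The BiP nucleotide exchange factor HYOU1 had -0.25 (edgeR adjusted p = 0.366; 161.9 CPM in bryostatin 1, 244.5 and 218.3 CPM in bryostatin 2 and 3, and 243.9 to 253.5 CPM with DMSO). The J-domain partners of BiP lay near 0, with DNAJB9 at 0.04, DNAJB11 at -0.03 and DNAJC3, an inhibitor of PERK, at -0.04. SDF2L1, which works with DNAJB11, had -0.20 and the stress-induced CRELD2 0.01, both with overlapping groups. Without bryostatin 1, DNAJB9 had -0.01, DNAJC3 0.08 and CRELD2 -0.18. Without bryostatin 1, 0 of the 11 chaperones rose and 3 fell, namely HSP90B1, HSPA5 and MANF (27.3% passed, beside 27.0% of all genes).

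Several of these genes carry a known response element near their start. The ER stress response element, the site through which ATF6 acts in stressed cells, reads CCAAT, then 9 bases, then CCACG. It was searched on both strands of the RefSeq promoters of GRCh38.p14, from 250 bases before to 50 after each start, and 42 of 47 members had an entry. It was found in 7 members (16.7% of 42), which were CALR, CANX, CRELD2, ERO1B, HSP90B1, HSPA5 and PDIA6, and in 25 of the 27305 genes with a RefSeq promoter entry (0.0916%; 0.0769% of 35116 promoters). The element and many of the members were picked for their known part in the ER stress response, so these shares are not a test. A match is a description of the letters and not evidence of binding. The windows below belong to the abundant chaperones, with the element in capitals; where it lies on the opposite strand it reads CGTGG, 9 bases, ATTGG. They are at chr9:125241371-125241429 (minus strand) for HSPA5, chr12:103930196-103930254 and chr12:103930301-103930359 (plus strand) for HSP90B1, and chr19:12938364-12938422 (plus strand) for CALR.
HSPA5: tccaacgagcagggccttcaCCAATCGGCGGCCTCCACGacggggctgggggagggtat
HSP90B1 upstream: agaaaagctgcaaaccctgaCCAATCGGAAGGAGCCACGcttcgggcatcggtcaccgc
HSP90B1 downstream: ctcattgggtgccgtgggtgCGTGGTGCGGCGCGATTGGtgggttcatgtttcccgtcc
CALR: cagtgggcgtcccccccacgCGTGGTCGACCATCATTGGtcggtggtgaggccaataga
Of the 7 genes with the element, ERO1B rose, HSP90B1 fell and 5 did not pass, while 4.56% of all genes passed. Without bryostatin 1, ERO1B rose, HSP90B1 and HSPA5 fell and 4 did not pass, while 27.0% of all genes passed in that fit. Whether the element goes with a change was not tested.

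Of the 9 folding enzymes, 2 rose, 1 fell and 6 did not pass (33.3% passed, beside 4.56% of all genes), with a median log2 fold change of -0.04. ERO1B (Entrez 56605, chromosome 1, 236215101 to 236281958) encodes an oxidase that passes electrons from disulfide isomerases to oxygen and so recharges them. It had 6.23, 11.5 and 8.30 CPM in bryostatin 1, 2 and 3, against 3.89, 3.50 and 4.39 CPM in DMSO libraries. All bryostatin libraries lay above all DMSO libraries, but at 2.67 ± 1.02 TPM with bryostatin and 1.37 ± 0.191 TPM with DMSO it was the lowest member in DMSO libraries. The log2 fold change was 1.14 ± 0.23, a 2.21-fold difference (edgeR adjusted p = 0.0324, range 3.90e-06 to 0.174), and 1.33 without bryostatin 1. The call was lost without bryostatin 2 or 3 (adjusted p = 0.0753 and 0.0914), without DMSO 1, 2 or 3 (0.151, 0.174 and 0.130) and on the TPM values (0.155).

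PDIA3 (Entrez 2923, chromosome 15, 43746438 to 43773278) encodes ERp57, the disulfide isomerase that CALR and CANX recruit to glycoproteins and that also sits in the MHC class I loading complex. It had 508.6, 517.2 and 470.8 CPM in bryostatin libraries and 374.4, 381.8 and 386.3 CPM in DMSO libraries. The groups did not overlap, and bryostatin 1 lay within its own group. The log2 fold change was 0.39 ± 0.06 (edgeR adjusted p = 0.0114, range 1.20e-06 to 0.105) and 0.37 without bryostatin 1. The call was lost without DMSO 1, 2 or 3 (adjusted p = 0.105, 0.0889 and 0.0864) and on the TPM values (0.0797). PDIA3 overlaps ELL3, which had 62.2 CPM in bryostatin 1, 34.7 and 34.7 CPM in bryostatin 2 and 3, and 34.1 to 35.7 CPM with DMSO, and the use of strand is not given in the sources used here.

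TXNDC5 (Entrez 81567, chromosome 6, 7881517 to 7910788), a disulfide isomerase with thioredoxin domains, moved the other way. It had 177.6, 192.0 and 180.6 CPM with bryostatin and 240.8, 238.0 and 217.9 CPM with DMSO. Again the groups did not overlap, and the 3 bryostatin libraries were close together. The log2 fold change was -0.34 ± 0.07 (edgeR adjusted p = 0.0299, range 5.49e-05 to 0.190) and -0.32 without bryostatin 1. The call was lost without bryostatin 2 or 3 (adjusted p = 0.0564 and 0.107), without DMSO 1, 2 or 3 (0.190, 0.171 and 0.0859) and on the TPM values (0.0559). Its neighbour BMP6, which overlaps it, was at no more than 0.701 CPM in any library.

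The other folding enzymes did not pass. P4HB, the classical protein disulfide isomerase, had 500.4, 492.8 and 469.0 CPM with bryostatin and 507.4, 523.6 and 476.2 CPM with DMSO, in overlapping groups, and its log2 fold change was -0.04 (edgeR adjusted p = 0.765). Its relatives PDIA4 and PDIA6 both had -0.09. ERO1A, the second oxidase, had 62.8, 63.9 and 61.8 CPM with bryostatin and 47.5, 52.7 and 56.4 CPM with DMSO. Its groups did not overlap, and its log2 fold change was 0.27 (edgeR adjusted p = 0.140, and 0.00526 without bryostatin 1). The ER peroxiredoxin PRDX4 had -0.09 and the prolyl isomerase FKBP11 0.10, but -0.10 without bryostatin 1. Without bryostatin 1, 3 folding enzymes rose (ERO1B, PDIA3 and ERO1A) and TXNDC5 fell (44.4% passed, beside 27.0% of all genes).

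Promoter windows are shown for ERO1B and TXNDC5, which passed and hold different elements. ERO1B has the ER stress response element on the opposite strand, at chr1:236282163-236282208 (minus strand). TXNDC5 has TGACGTGG, a box bound by XBP1 and ATF6, at chr6:7910142-7910189 (minus strand). It ends in CGTGG, the reverse complement of the CCACG part of the other element. Searched on both strands, that box was present in 3 of 42 members (HYOU1, SSR4 and TXNDC5), or 7.14%, and in 0.927% of the genes with an entry (0.729% of promoters). HYOU1 and SSR4 did not pass, and HSP90B1, which holds the same element as ERO1B, fell. A link between element and direction was not tested. Capitals mark the element.
ERO1B: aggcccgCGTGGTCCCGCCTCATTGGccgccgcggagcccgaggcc
TXNDC5: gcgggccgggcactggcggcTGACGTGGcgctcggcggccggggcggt
Another element, TGATGNAA, to which ATF4 binds with C/EBP partners, was present in CREB3L2 and HERPUD1 (4.76% of members, 4.46% of genes with an entry, 3.62% of promoters).

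**Figure D3:**
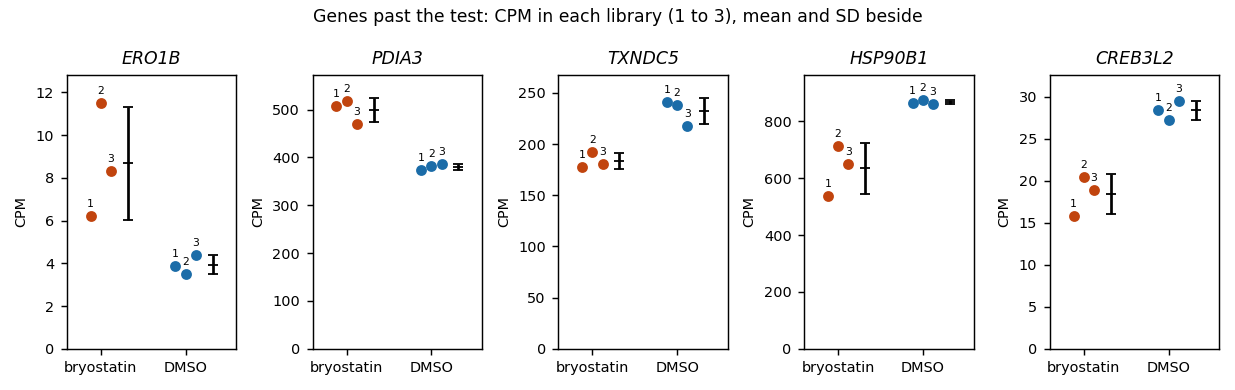
Points are CPM (y axis, from 0) of the 5 genes that passed the test in bryostatin libraries (left) and DMSO libraries (right), numbered by replicate, with the mean and SD (n = 3) beside them. In ERO1B and PDIA3 each bryostatin point is above each DMSO point, and in TXNDC5, HSP90B1 and CREB3L2 each is below.

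Of the 8 genes of ER-associated degradation, 0 rose and 0 fell by edgeR, with 2 higher and 0 lower at p under 0.05 before adjustment, 1 higher by DESeq2, and 3 higher with quality weights and without bryostatin 1. Without bryostatin 1 that was 37.5% of the group, beside 27.0% of all genes (13.8% higher). The median log2 fold change of the 8 with all libraries was 0.17. SYVN1, the ubiquitin ligase at the centre of this route, had 122.9, 157.0 and 145.3 CPM with bryostatin and 110.4, 112.3 and 111.1 CPM with DMSO. The groups did not overlap, and bryostatin 1 was nearest to the DMSO libraries. Its log2 fold change was 0.35 ± 0.09 (edgeR adjusted p = 0.0859), with 0.0333 by DESeq2, and it was 0.44 without bryostatin 1 (adjusted p = 6.54e-07). MRPL49, which overlaps SYVN1, was at -0.22 (edgeR adjusted p = 0.126).

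EDEM1 and EDEM2, which trim mannose from misfolded glycoproteins and mark them for degradation, also passed without bryostatin 1. EDEM1 had 58.4 CPM in bryostatin 1, 75.5 and 75.3 CPM in bryostatin 2 and 3, and 59.9 to 61.4 CPM with DMSO, so bryostatin 1 lay below the DMSO range and the other bryostatin libraries above it. Its log2 fold change was 0.20 (edgeR adjusted p = 0.371), and 0.31 without bryostatin 1 (adjusted p = 1.81e-04). EDEM2 had 0.31 (adjusted p = 0.158, and 0.0392 without bryostatin 1). HERPUD1, which links the ligase complex to its partners, had 0.15 with groups that did not overlap (adjusted p = 0.306). DERL1, a channel component and the highest of the 8 by mean TPM over all libraries, had 123.9, 161.3 and 136.5 CPM with bryostatin and 141.7, 142.5 and 133.8 CPM with DMSO, overlapping groups with a fold change of 0.01. Its relatives DERL2 and DERL3 had -0.10 and 0.25 with all libraries, and -0.03 and 0.0005 without bryostatin 1. SEL1L, the adaptor of SYVN1, had 50.01 CPM in bryostatin 1, 100.5 and 91.8 CPM in bryostatin 2 and 3 and 88.1 to 94.3 CPM with DMSO, so its -0.17 came with 1 low library and was 0.08 without it.

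The 3 stress sensors did not pass. By edgeR 0 rose and 0 fell, with 0 at an unadjusted p under 0.05, 0 by DESeq2, and 1 higher with quality weights and without bryostatin 1. Without bryostatin 1 that was 33.3% of the sensors, beside 27.0% of all genes (13.8% higher). ERN1, which encodes the RNase and kinase IRE1, had 5.26, 12.3 and 10.3 CPM with bryostatin and 11.2, 11.95 and 9.83 CPM with DMSO. Bryostatin 1 was at less than any other library, and the log2 fold change was -0.24 ± 0.27 (edgeR adjusted p = 0.689), and 0.04 without bryostatin 1. ATF6, a membrane-held transcription factor freed by cleavage in the Golgi, had 58.6, 73.1 and 62.6 CPM with bryostatin and 67.6, 65.4 and 66.9 CPM with DMSO. Its groups overlapped (log2 fold change -0.04, adjusted p = 0.861, and 0.02 without bryostatin 1). EIF2AK3, the kinase PERK, had 41.6, 60.8 and 53.1 CPM with bryostatin and 49.6, 45.9 and 49.1 CPM with DMSO. Its fold change was 0.11 (adjusted p = 0.722), and 0.24 without bryostatin 1 (adjusted p = 0.0102).

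Sensor activity is set by oligomerisation, cleavage and phosphorylation of the proteins, which transcript levels do not measure. XBP1 is the messenger that IRE1 splices into its active form, and the table gives 1 value per gene, so spliced and unspliced forms cannot be told apart. XBP1, which is outside the 47, had 81.6, 72.9 and 68.8 CPM with bryostatin and 92.5, 93.2 and 88.6 CPM with DMSO. Its groups did not overlap, and the log2 fold change was -0.30 ± 0.08 (edgeR adjusted p = 0.0967, range over alternatives 3.20e-05 to 0.349). It passed without bryostatin 1 (-0.37, adjusted p = 3.20e-05), with DESeq2 (0.0459), with scaling by library size alone (0.0436), with quality weights (6.50e-05) and on the TPM values (0.0214).

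The 4 effectors of the PERK and ATF4 branch did not pass either, with 0 at an unadjusted p under 0.05 by edgeR, and 0 by DESeq2, with quality weights and without bryostatin 1. ATF4, the transcription factor whose translation rises when PERK is active, was the second most abundant member. It had 632.9, 531.2 and 529.6 CPM with bryostatin and 535.0, 534.6 and 551.3 CPM with DMSO, with bryostatin 1 above all others. Its log2 fold change was 0.06 ± 0.08 (edgeR adjusted p = 0.728), and -0.03 without bryostatin 1. DDIT3, which encodes the pro-apoptotic factor CHOP, had 8.75, 6.09 and 6.43 CPM with bryostatin and 5.66, 6.67 and 5.44 CPM with DMSO. The groups overlapped, with a fold change of 0.26 ± 0.18 (adjusted p = 0.494), and 0.08 without bryostatin 1. The phosphatase subunit PPP1R15A, which reverses the PERK block on translation, had 0.02, and TRIB3, a pseudokinase induced by CHOP, had 0.25 (0.10 without bryostatin 1).

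Of the 5 translocon and signal peptidase genes, 0 rose and 0 fell, with 0 at an unadjusted p under 0.05 by edgeR, 0 by DESeq2, and 2 lower with quality weights and without bryostatin 1. Without bryostatin 1 that was 40% of the group, beside 27.0% of all genes (13.2% lower). SEC11C, a catalytic subunit of the signal peptidase, was the highest of the 5 and had 195.5, 169.4 and 163.3 CPM with bryostatin and 184.5, 179.6 and 189.0 CPM with DMSO. Bryostatin 1 lay above the DMSO range and the other bryostatin libraries below it. Its log2 fold change was -0.07 (edgeR adjusted p = 0.706), and -0.15 without bryostatin 1 (adjusted p = 0.0151). SEC61B, the beta subunit of the channel and the shortest member at 300 bases, had 69.7, 49.7 and 54.9 CPM with bryostatin and 63.3 to 74.2 CPM with DMSO, with bryostatin 1 inside the DMSO range and the other bryostatin libraries below it. Its fold change was -0.23 (adjusted p = 0.400), and -0.38 without bryostatin 1 (adjusted p = 4.44e-04), and it passed on the TPM values (0.0476). SEC61A1, the channel itself, had -0.10, the translocon-associated SSR4 -0.01 and the peptidase subunit SPCS1 0.06, the last with -0.07 without bryostatin 1.

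Of the 7 plasma-cell secretory genes, 0 rose, 1 fell and 6 did not pass, with a median log2 fold change of -0.45. The gene that fell was CREB3L2 (Entrez 64764, chromosome 7, 137874979 to 138002086), a membrane-held transcription factor of the ATF6 type that promotes transport from the ER to the Golgi. It had 15.8, 20.5 and 18.9 CPM with bryostatin and 28.4, 27.2 and 29.5 CPM with DMSO. The groups were well apart, with bryostatin 1 the lowest. Its log2 fold change was -0.63 ± 0.11 (edgeR adjusted p = 0.0201, range 3.42e-05 to 0.127), and -0.53 without bryostatin 1. The call was lost without bryostatin 3 (adjusted p = 0.0653), without DMSO 1, 2 or 3 (0.113, 0.0911 and 0.127) and on the TPM values (0.0897).

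SDC1, FNDC3B and TENT5C were lower in each bryostatin library than in any DMSO library without passing. SDC1, the plasma-cell surface proteoglycan CD138, had 6.52, 10.8 and 8.08 CPM with bryostatin and 14.5, 13.1 and 13.5 CPM with DMSO, the lowest log2 fold change of the members at -0.69 ± 0.18 (edgeR adjusted p = 0.0752). It passed by DESeq2 (0.0108), without bryostatin 1 (-0.53, adjusted p = 0.00256) and without bryostatin 2 (-0.91, 0.0267). FNDC3B, a membrane protein with fibronectin domains, had 7.03 CPM in bryostatin 1, 12.8 and 14.7 CPM in bryostatin 2 and 3, and 17.5 to 18.3 CPM with DMSO. Its fold change was -0.63 (adjusted p = 0.187), and -0.38 without bryostatin 1 (0.00527). TENT5C, a poly(A) polymerase that stabilises immunoglobulin messengers, had -0.45 (adjusted p = 0.125), and -0.33 without bryostatin 1 (0.0239).

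JCHAIN, which joins the subunits of secreted IgM and IgA, was the highest of these by TPM and showed how much bryostatin 1 differed. It had 421.5 CPM in bryostatin 1, 285.4 and 252.5 CPM in bryostatin 2 and 3, and 354.8, 352.6 and 352.7 CPM with DMSO. The log2 fold change was -0.14 ± 0.17 (edgeR adjusted p = 0.694) with all libraries and -0.40 ± 0.05 without bryostatin 1 (adjusted p = 2.02e-06). MZB1, a partner of GRP94 in B cells, stood against the others with groups that did not overlap on the higher side (0.15, adjusted p = 0.347). ELL2, an elongation factor that favours the secreted form of the immunoglobulin heavy chain, had -0.16 with overlapping groups. Without bryostatin 1, 0 of the 7 rose and 5 fell (71.4%, while 13.2% of all genes fell). Of 5 plasma-cell markers (SDC1, CD38, TNFRSF17, XBP1 and SLAMF7) 4 were tested and 1 fell, namely TNFRSF17 at -0.60 (edgeR adjusted p = 0.0377). That is 25%, while 0.835% of all genes fell. In CPM all 4 had bryostatin libraries below all DMSO libraries, and 27.8% of all genes had groups that did not overlap in either direction. Without bryostatin 1, 5 markers were tested and 4 fell (80%, while 13.2% of all genes fell). The edgeR adjusted p was 0.00256 for SDC1, 0.0173 for CD38, 6.63e-04 for TNFRSF17 and 3.20e-05 for XBP1. The summed level of the 5 markers was 105 to 126 TPM in bryostatin libraries and 154 to 161 TPM in DMSO libraries, and none was at 0 in any library. The part of these markers in the result was not tested, and SDC1 and XBP1 are counted in more than 1 list.

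**Figure D4:**
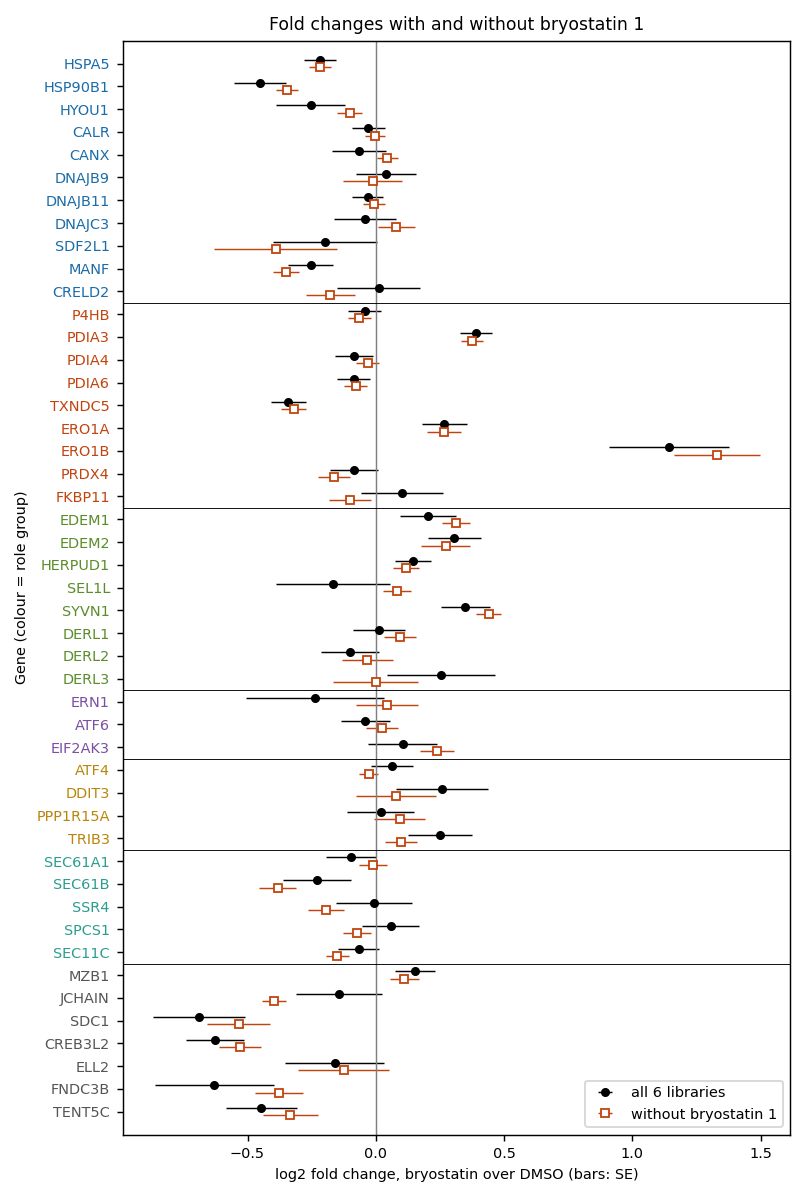
Points are log2 fold changes (x axis, bryostatin over DMSO, bars are SE) of each gene, with all 6 libraries in black and without bryostatin 1 in open squares; name colours give the role group. In the plasma-cell group JCHAIN lies at -0.14 with all libraries and at -0.40 without bryostatin 1, while PDIA3 lies at 0.39 and 0.37.

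By TPM, which allows genes to be set side by side, the members spanned a wide range. The sum over the 47 was 6523, 7495 and 7016 TPM in bryostatin 1, 2 and 3 and 7849, 7785 and 7840 TPM in DMSO 1, 2 and 3. On this scale the median log2 fold change was below 0 over all genes as well (-0.0908 by limma). CALR, ATF4, SEC11C, JCHAIN and HSP90B1 led in DMSO libraries, at 1123 ± 11.8, 713 ± 26.5, 542 ± 26.3, 530 ± 12.3 and 529 ± 6.37 TPM. The bryostatin libraries had 367 ± 82.4 TPM of HSP90B1 and 444 ± 79.8 TPM of JCHAIN. In order of level, ATF4 lay above SEC11C beyond the spread of either in both groups, while SEC11C, JCHAIN and HSP90B1 differed by less than the SD of SEC11C in DMSO libraries. Of the sensors, ERN1 was at 1.80 ± 0.823 TPM in bryostatin libraries and 2.19 ± 0.157 TPM in DMSO libraries. ATF6 was at 22.4 ± 4.99 TPM in bryostatin libraries and 24.3 ± 0.983 TPM in DMSO libraries, and EIF2AK3 at 18.6 ± 4.89 TPM in bryostatin libraries and 18.3 ± 1.04 TPM in DMSO libraries.

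**Figure D5:**
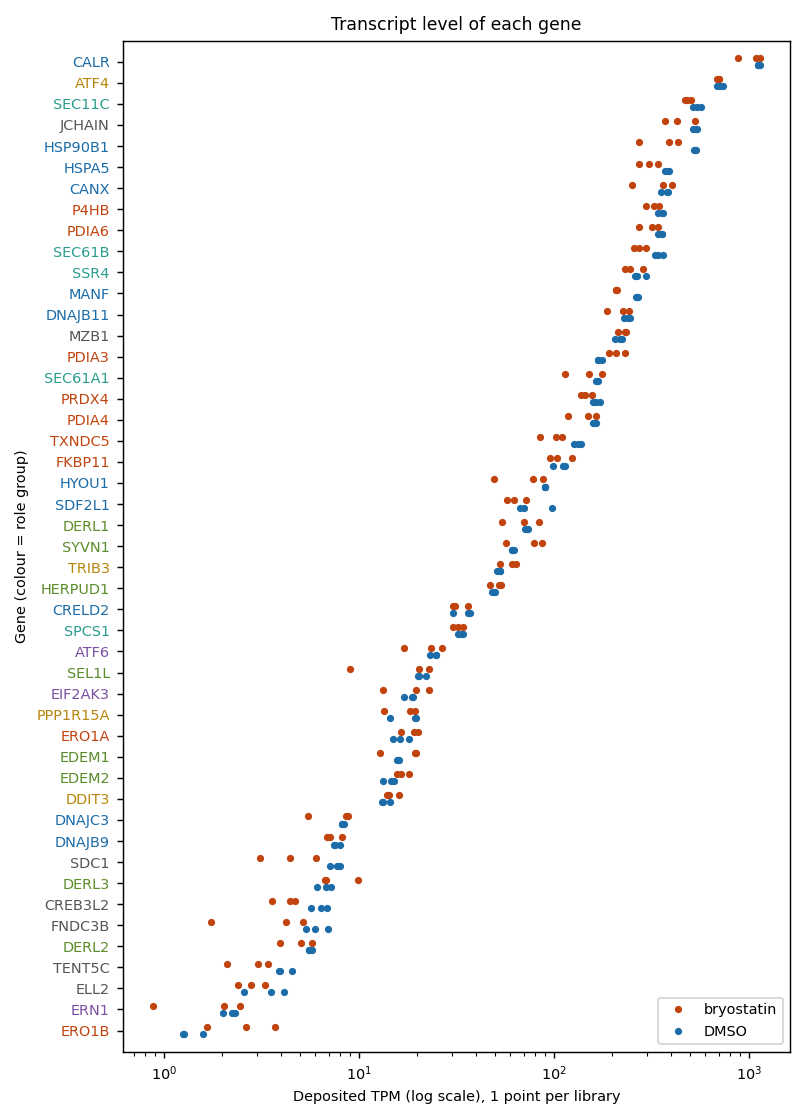
The x axis gives the deposited TPM (log scale) of each gene in each library, with genes in order of mean level and name colours by role group; CALR is at the top, and ERN1 and ERO1B, below 4 TPM in each library, are at the bottom.

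Beyond the 47, 162 other genes of the ER and the early secretory route were listed, and 147 were tested. Of these, 5 rose and 2 fell (4.76%, beside 4.56% of all genes). Those that rose were the folding factors ERP29 (log2 fold change 0.46, edgeR adjusted p = 0.00909), TXNDC12 (0.47, 0.0240) and TMX4 (0.41, 0.0187), the ubiquitin-conjugating enzyme UBE2J1, which works with SYVN1 (0.49, 0.0114), and DDIT4, an inhibitor of mTOR signalling induced by stress (0.41, 0.0274). Each had bryostatin libraries above all DMSO libraries: UBE2J1 had 538.3, 472.4 and 455.8 CPM with bryostatin and 345.4, 340.8 and 361.7 CPM with DMSO. Those that fell were the plasma-cell regulators PRDM1 (-1.07, 0.0123) and IRF4 (-0.68, 0.00798). The 5 plasma-cell transcription factors listed did not share a direction. By sign PRDM1, IRF4 and XBP1 were lower, and ZBTB20 and POU2AF1 were higher, with a highest log2 fold change of 0.53. All 5 had groups that did not overlap, 2 higher and 3 lower, beside 27.8% of all genes. Without bryostatin 1, 1 of the 5 rose and 3 fell. PRDM1, which encodes Blimp-1, had 7.32, 11.4 and 11.98 CPM with bryostatin and 20.6, 21.9 and 21.9 CPM with DMSO. Of the 7 genes that passed, 0 kept their call without DMSO 1, 2 or 3 (edgeR adjusted p = 0.0505 to 0.170). DDIT4 lost it without bryostatin 2 or 3 (0.0902 and 0.114), as did TMX4 (0.0699 and 0.0793), and TXNDC12 without bryostatin 2 (0.0778). On the TPM values TMX4 and DDIT4 did not pass (0.204 and 0.150), nor did DDIT4 with scaling by library size alone (0.0514). Without any 1 DMSO library, 13 or 14 of the 147 were higher and 5 to 7 lower at p under 0.05 before adjustment.

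By group, the 41 tested genes of COPII, COPI and cargo transport had 0 higher and 0 lower by edgeR (1 and 5 at an unadjusted p under 0.05, 0 by DESeq2), as had the 11 oligosaccharyltransferase genes (0 and 1 unadjusted, 0 by DESeq2) and the other 20 translocon and targeting genes (2 and 2 unadjusted, 0 by DESeq2). Without bryostatin 1, 3 transport genes rose and 8 fell (26.8% passed), 0 oligosaccharyltransferase genes rose and 1 fell (9.09%), and 3 translocon and targeting genes rose and 3 fell (30%), beside 27.0% of all genes. Quality weights gave these same counts. Of 26 other folding factors 3 rose (11.5%, beside 4.56% of all genes), and of 21 other degradation genes 1 rose (4.76%). Without bryostatin 1 the folding factors had 7 higher and 3 lower (38.5%), and the degradation genes 3 higher and 2 lower (23.8%). Of 22 other unfolded protein and integrated stress response genes, 1 rose (DDIT4) and 0 fell (3 and 1 by DESeq2). Before adjustment, 7 and 2 of them had edgeR p under 0.05. In CPM 10 had groups that did not overlap (45.5%, beside 27.8% of all genes), 7 higher and 3 lower. SESN2 (0.64, edgeR adjusted p = 0.0520), ASNS (0.41, 0.216) and CHAC1 (0.34, 0.275) were among the 7, and XBP1 among the 3. Without bryostatin 1 they had 0.45 for SESN2, 0.17 for ASNS and 0.25 for CHAC1 (edgeR adjusted p = 6.35e-05, 0.00666 and 0.219). ATF3 (0.09), ATF5 (0.05), CEBPB (0.06) and CEBPG (-0.004) had overlapping groups. So had EIF2AK2, the highest of the 22 at 0.69 (0.94 without bryostatin 1). Without bryostatin 1, 7 of the 22 rose and 2 fell (40.9%, beside 27.0% of all genes), and 6 and 2 with quality weights. Without bryostatin 1 the 147 other genes numbered 24 higher and 21 lower, or 30.6%, beside 27.0% of all genes. Of 15 immunoglobulin genes listed 2 were tested, and the other 13 symbols were not rows of the deposited table.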

How the data were processed

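Messenger RNA was selected by its poly(A) tail and reverse transcribed with random primers before paired-end sequencing, per the labels' protocols. The authors deposited 1 table with expected counts (estimates that share reads among matching transcripts), FPKM and TPM for each library. The submitters' processing notes name, with no role, the build GRCh38, RSEM 1.2.28, HISAT2 2.2.1 and DESeq2 1.40.2. With the annotation and use of strand not given in the sources used here, values of the 13 members that overlap another gene of the table are uncertain.

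Expected counts were rounded and tested in R 4.3.3 with edgeR 4.0.16 (TMM, filterByExpr, robust quasi-likelihood, 2-sided, Benjamini-Hochberg over 11613 genes, threshold 0.05). The SE is the log2 fold change over the root of F. CPM use TMM factors; deposited TPM served for levels between genes and, as log2(TPM + 0.5), for limma 3.58.1, a scale that understates changes of low genes. Effective length came from deposited counts and FPKM in DMSO libraries. Coordinates and promoters are from RefSeq (GRCh38.p14, 1-based). Alternatives were other scaling, filters, DESeq2 1.42.0, quality weights, TPM, a replicate block and each library left out.

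The members and gene lists were chosen with earlier results of these data known. Each member is named. Values per library are given for members that passed, the highest member of each role group by TPM, XBP1, ERN1, ATF6, EIF2AK3 and DDIT3; those of HSPA5, MANF, HYOU1, ERO1A, SYVN1, EDEM1, SEL1L, SEC61B, SDC1, FNDC3B, UBE2J1 and PRDM1 were added after their values were seen. The scripts were checked on simulated counts.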

Additional observations from a re-analysis of the deposited data

How the results depend on the processing

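Over all genes, the counts that moved by more than 1.5 times from 529 (432 higher, 97 lower) were 865 with 236 lower by DESeq2, 3040 (1609 and 1431) with quality weights, 269 higher and 198 lower on the TPM values and 338 (284 and 54) with the replicate block; with 1 library left out they ran from 138 to 3183 (128 to 1632 higher, 10 to 1551 lower). For the members, 5 called (2 higher, 3 lower) became 18 (7 and 11) with quality weights, 2 with 0 higher on the TPM values (2 higher at an unadjusted p under 0.05) and 2 (1 and 1) with the block, and 0 to 18 (0 to 7 and 0 to 11) with 1 library left out. For the other ER genes, 7 called (5 higher, 2 lower) became 43 (23 and 20) with quality weights, 4 (2 and 2) with the block, and 0 to 45 (0 to 24 and 0 to 21) with 1 library left out. The cause was not tested in any of these.

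Of the results per gene and alternative, 628 kept direction and side of the threshold, 36 gained a call, 62 lost it and 44 changed sign, all 44 in genes without a call when all 6 libraries were used. With quality weights the log2 fold changes that turned were 0.0259 for CANX, -0.0144 for DNAJB9, 0.0701 for DNAJC3, -0.14 for CRELD2, -0.0663 for FKBP11, 0.0446 for SEL1L, 0.0104 for ERN1, 0.00419 for ATF6, -0.0189 for ATF4 and -0.0616 for SPCS1. With library size only they were -8.03e-05 for DNAJB9, -0.0324 for CRELD2, -0.0226 for DERL1 and -0.0192 for PPP1R15A. On the TPM values they were -0.0534 for DNAJB9, -0.0864 for CRELD2, -0.0157 for FKBP11, -0.0877 for DERL1, -0.00722 for EIF2AK3, -0.0318 for ATF4, -0.0664 for PPP1R15A and -0.0454 for SPCS1. With 1 library left out the ranges that crossed 0 were -0.16 to 0.0447 for CANX, -0.0126 to 0.11 for DNAJB9, -0.12 to 0.0797 for DNAJC3, -0.39 to 0.0200 for SDF2L1, -0.18 to 0.0929 for CRELD2, -0.10 to 0.21 for FKBP11, -0.35 to 0.0842 for SEL1L, -0.0977 to 0.0946 for DERL1, -0.49 to 0.0436 for ERN1, -0.14 to 0.0245 for ATF6, -0.0250 to 0.24 for EIF2AK3, -0.0281 to 0.11 for ATF4, -0.0966 to 0.0934 for PPP1R15A, -0.19 to 0.0791 for SSR4, -0.0743 to 0.14 for SPCS1 and -0.32 to 0.0192 for ELL2.

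Replicate numbers do not pair the libraries: deviations of same-numbered libraries correlated at -0.212, -0.165 and 0.0311 for replicates 1, 2 and 3, so the block values rest on numbers alone. With the block, HSP90B1, ERO1B and TXNDC5 (edgeR adjusted p = 0.0503, 0.0553 and 0.0755), and DDIT4, TMX4 and TXNDC12 outside the 47 (0.0943, 0.0572 and 0.0589), did not pass. The series has 3 libraries per group and 1 dose, and leaving out a library leaves 2 in its group. At this depth ERO1B, near 4 CPM with DMSO, is the least precisely measured of the genes that passed.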
